A study of Mus musculus with 2 samples.

Results

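The subject is a set of 10 genes for subunits of the BAF (mammalian SWI/SNF) chromatin remodelling complex that come in alternative forms in neural progenitors and in neurons. The genes were chosen by symbol from a list of known paralogues, and all 10 were found among the 24411 genes counted. RNA was sequenced in bulk from pieces of embryonic mouse brain (embryonic day 16.5) taken by laser capture microdissection (LCM), which cuts marked areas out of a stained frozen section. The areas were the subventricular zone (SVZ), where progenitors divide near the lateral ventricle, and the cortex, with 1 library for each. No genetic change or treatment is named for either. The sources used here do not give strain, sex or the number of embryos. The libraries were the study's reference for a light-directed barcoding method, which was not analysed here.

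BAF complexes use the energy of ATP to slide or evict nucleosomes. They are built around an ATPase, Smarca4 (BRG1) or Smarca2 (BRM), and hold many further subunits, several of which are drawn from small gene families. Dividing neural progenitors are known to use Actl6a, Phf10 or Dpf2, and Ss18, whereas neurons that have left the cell cycle use Actl6b, Dpf1 or Dpf3, and Ss18l1 (CREST) in their place. This exchange is known as the switch from the progenitor (npBAF) to the neuronal (nBAF) complex, and the comparison of SVZ with cortex asks how the transcripts of both forms are divided between the areas. In the following, Actl6a, Phf10, Dpf2 and Ss18 are called progenitor-type, Actl6b, Dpf1, Dpf3 and Ss18l1 neuronal-type, and the ATPases are described apart. Dpf2 is broadly expressed and is placed with the progenitor-type genes as the counterpart of Dpf1 and Dpf3.

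A microRNA arm, miR-9-3p (miR-9*), is known to repress Actl6a in neurons through its 3′ UTR, and REST is known to repress the microRNA genes in progenitors. The mature miR-9-3p is shown with its seed, bases 2 to 8, in capitals, followed by the sites in the 3′ UTRs of the members that hold the exact complement of the seed, which is in capitals there. The mature sequence is from RefSeq (GRCm38.p6) and the sites are from GENCODE M21 (GRCm38), at chr3:32726625-32726647 for Actl6a and chr19:26777487-26777509 for Smarca2, both on the plus strand.
miR-9-3p: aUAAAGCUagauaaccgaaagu
Actl6a: cacctcaacgtctgtAGCTTTAg
Smarca2: ttgtcatctagaactAGCTTTAg
Among the 10 members, Actl6a, whose 3′ UTR had 371 bases, and Smarca2, with 951 bases, had 1 match each, and the other 8 had 0. Over all 20921 protein-coding genes with a 3′ UTR, 11.1% had at least 1 match, at a median length of 935 bases. A match is a description of the sequence, and the members with a match lay on opposite sides of the comparison below.

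Promoters from RefSeq (GRCm38.p6) were matched by symbol for 9 of the 10 members, all but Ss18. The 250 bases before each RefSeq start were searched on both strands for 4 short motifs. The CCAAT motif was found in 4 of the 9 windows (3 matches in Actl6b, 3 in Dpf3, 2 in Dpf1 and 1 in Dpf2) and in 33.8% of 32851 windows of all genes. The GC box, spelled GGGCGG, was found in 7 of the 9, against 32.7% of all windows. An E2F-type motif, spelled GCGGGAA, was found in 0 of the 9, against 3.82%. A piece of the REST site, spelled CAGCACC, was also found in 0 of the 9, against 5.73%. These letters say nothing on binding. The windows of Actl6a and of the neuronal-type genes with the largest differences, Actl6b and Dpf1, are printed in part. CCAAT or its reverse complement is in capitals. Each is cut at the first base within the window that GENCODE M21 places in an exon. The printed bases lie at chr3:32708296-32708506, chr5:137553296-137553516 and chr7:29303755-29303950, all on the plus strand, and the third Actl6b match lies after them. For Actl6b and Dpf1 the cut falls at the start of the annotated gene. Actl6a is annotated from 32706298, upstream of its window, so its printed bases lie inside the annotated gene.
Actl6a: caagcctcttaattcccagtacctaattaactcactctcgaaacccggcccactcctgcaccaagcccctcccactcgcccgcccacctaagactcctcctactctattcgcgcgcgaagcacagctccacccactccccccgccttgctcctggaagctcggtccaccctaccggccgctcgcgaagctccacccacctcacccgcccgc
Actl6b: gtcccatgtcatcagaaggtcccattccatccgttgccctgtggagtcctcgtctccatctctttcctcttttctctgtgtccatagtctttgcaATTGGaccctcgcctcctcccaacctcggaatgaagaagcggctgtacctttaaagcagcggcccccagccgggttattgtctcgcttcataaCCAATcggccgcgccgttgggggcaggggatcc
Dpf1: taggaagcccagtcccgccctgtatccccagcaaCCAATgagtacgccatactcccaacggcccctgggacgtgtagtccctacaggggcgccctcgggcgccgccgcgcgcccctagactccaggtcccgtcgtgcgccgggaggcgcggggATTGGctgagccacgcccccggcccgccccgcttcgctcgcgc

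Reads assigned to genes numbered 51435667 for SVZ and 22050693 for cortex, so that 1 read was worth 0.0194 and 0.0454 counts per 1000000 gene reads (CPM). With 1 library per area there is no replicate and no test, and each interval given is an exact 95% interval of counting error alone, for reads that carried no molecular identifier. Genes averaging at least 1 CPM over both libraries numbered 12738, and for 86.8% of them the interval excluded equal CPM, as it did for 9 of the 10 members. It separates these libraries rather than the areas in general. In bulk tissue, fewer cells of a type and less RNA per cell cannot be told apart. The labelled areas were compared with marker lists, which were chosen with earlier results of these data known. Apical progenitor genes (8 of 8, summed 6529 CPM in SVZ and 129.7 in cortex), intermediate progenitor genes (3 of 3, 553 and 26.1) and cycling genes (8 of 8, 1765 and 29.3) all had at least 4 times the CPM in SVZ. Over all genes, 10.2% were at least 4-fold higher in SVZ. All 10 neuronal genes were higher in the cortex library, as 45.1% of all genes were, with log2 ratios from -3.51 to -0.32. Of the 10, 6 were at least 2-fold higher there, against 15.6% of all genes. Their summed level was 4211 CPM in SVZ and 11410.5 in cortex. The SVZ library therefore held transcripts of apical and intermediate progenitors and also of neurons, while the cortex library held few from progenitors. Among lists of other cells, microglial genes were higher in SVZ in 7 of 7 (52.5 and 5.85 CPM), as 6990 of the 12738 genes were. Choroid plexus genes summed to 245 and 0.726 CPM, with 1 of 4 at 0 in SVZ and 3 at 0 in cortex. Interneuron (126 and 96.7), endothelial (64.4 and 55.6), erythroid (20.1 and 10.6, with 2 of 4 at 0 in both) and meningeal genes (3.66 and 5.71) had closer sums. The part of these cells in the values below was not tested.

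The progenitor-type and neuronal-type genes lay on opposite sides of the comparison. All 4 progenitor-type genes were higher in SVZ, with a median log2 ratio (SVZ over cortex) of 1.09, and all 4 neuronal-type genes had more CPM in cortex, with a median of -1.89, although the interval of Dpf3 included equal CPM. Both ATPases were also higher in cortex, a direction that 45.1% of all genes took. The median over the 12738 genes was 0.11, and all 10 members passed the minimum of 1 CPM. At least 2-fold higher in SVZ were 3 of the 4 progenitor-type genes, against 20.0% of all genes. At least 2-fold higher in cortex were 3 of the 4 neuronal-type genes and 1 of the 2 ATPases, against 15.6% of all genes. Counted in either direction, 7 of the 10 members were at least 2-fold apart, against 35.6%. The members were chosen with earlier results of these data known, so these counts are descriptions and not independent evidence. Phf10 and Dpf3, the member of each type that stayed under 2-fold, are plant homeodomain (PHD) finger subunits of the same family. With upper-quartile scaling, which lowered the median of all genes by 0.10, Dpf2 and Ss18 fell just under 2-fold (log2 ratios 1.00 and 0.99) and the count of progenitor-type genes was 1. No member changed side under any scaling.

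**Figure D1:**
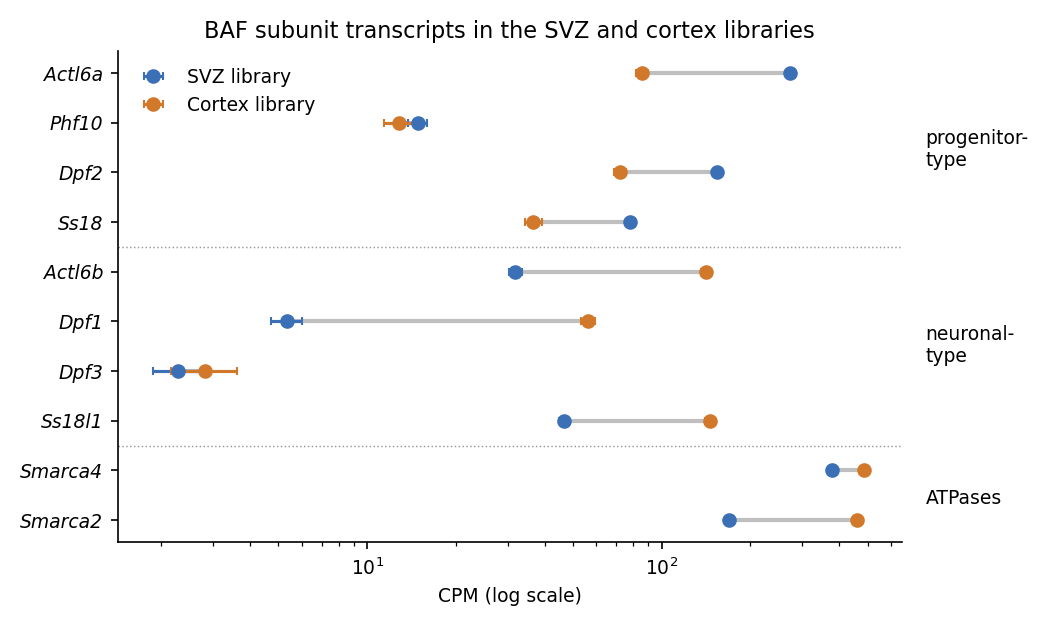
CPM of the 10 members on a log axis in the SVZ library (blue) and the cortex library (orange), with exact 95% Poisson intervals of the read counts, 1 library each. The 4 progenitor-type genes lie higher in SVZ, the 4 neuronal-type genes and both ATPases higher in cortex, but the intervals overlap for Phf10 and Dpf3.

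The more abundant of the actin-related subunits was Actl6a in SVZ and Actl6b in cortex. Actl6a (BAF53a; GRCm38 chromosome 3, 32706298 to 32726973) and Actl6b (BAF53b; chromosome 5, 137553517 to 137569582) encode actin-like proteins that join the ATPase. Actl6a had 14009 reads in SVZ and 1892 in cortex, or 272 CPM (interval 268 to 277) and 85.8 CPM (82.0 to 89.8). Actl6b had 1639 and 3112 reads, or 31.9 CPM (30.3 to 33.4) and 141 CPM (136 to 146). Actl6a was thus 3.17-fold higher in SVZ (log2 ratio 1.67, interval 1.60 to 1.74) and Actl6b 4.43-fold higher in cortex (-2.15, -2.23 to -2.06). Within a library, the ratio of Actl6b to Actl6a reads depends neither on library scaling nor on gene length when libraries are compared. It was 0.117 in SVZ and 1.64 in cortex, 14.1-fold higher in cortex (interval 13.0 to 15.2). Per kilobase of exon, Actl6b took 12.9% of the pair in SVZ and 67.5% in cortex, while the sum of the pair was 156 and 131 RPKM (CPM per kilobase of merged exon). The leading paralogue therefore differed between the libraries while the summed level differed by less than either gene.

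SS18 and its paralogue showed the same arrangement with a smaller contrast. Ss18 (chromosome 18, 14624198 to 14682914) and Ss18l1 (chromosome 2, 180042509 to 180070201) encode related proteins that bind BAF complexes, and CREST, the product of Ss18l1, is known as a calcium-responsive transactivator needed for dendrite growth. Ss18 had 4017 reads in SVZ and 809 in cortex, or 78.1 CPM (75.7 to 80.6) and 36.7 CPM (34.2 to 39.3). Ss18l1 had 2395 and 3203 reads, or 46.6 CPM (44.7 to 48.5) and 145 CPM (140.3 to 150.4). Their log2 ratios were 1.09 (0.98 to 1.20) and -1.64 (-1.72 to -1.56), so that the interval of Ss18 reached below 2-fold. Ss18l1 reads per Ss18 read rose from 0.596 in SVZ to 3.96 in cortex, a 6.64-fold difference (6.05 to 7.29). Ss18l1 already took 38.3% of the pair per kilobase in SVZ, a larger share than Actl6b had of its pair there, and 80.5% in cortex. The sum of the pair was 28.0 RPKM in SVZ and 41.6 in cortex.

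**Figure D2:**
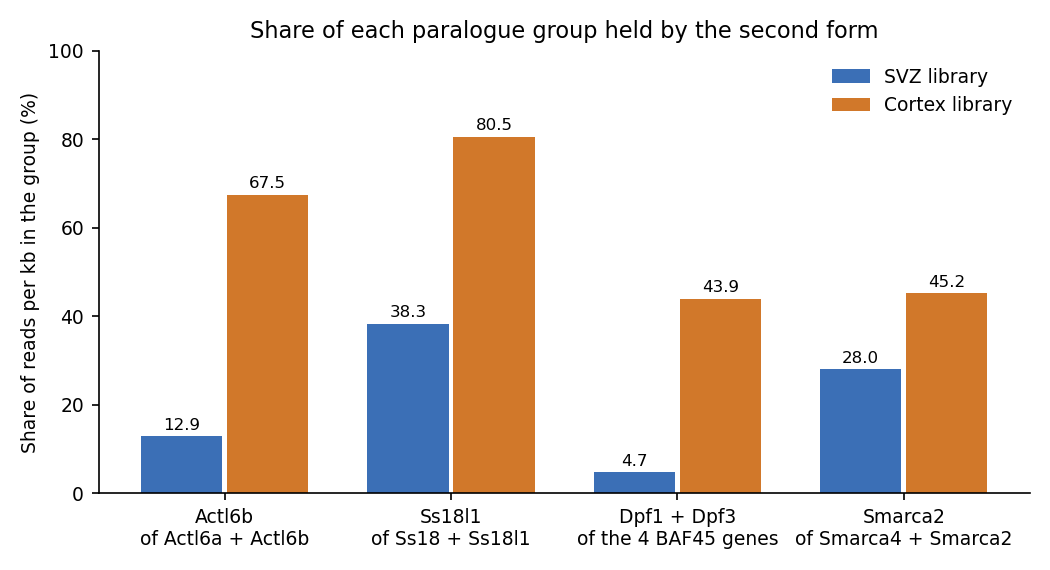
Share (%) of reads per kb of exon that the second-named gene or genes took of each paralogue group in the SVZ library (blue) and the cortex library (orange), 1 library each, bars from 0. The shares were 12.9 and 67.5 for Actl6b, 38.3 and 80.5 for Ss18l1, 4.73 and 43.9 for Dpf1 with Dpf3, and 28.0 and 45.2 for Smarca2.

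In the PHD finger family, 1 gene on each side carried the difference. Dpf1 (BAF45b; chromosome 7, 29303951 to 29318243) had 274 reads in SVZ and 1237 in cortex, or 5.33 CPM (4.71 to 6.00) and 56.1 CPM (53.0 to 59.3). It was 10.5-fold higher in cortex (log2 ratio -3.40, -3.59 to -3.21), the largest difference among the 10 members. Dpf2 (BAF45d; chromosome 19, 5896516 to 5913010) had 7931 and 1591 reads, or 154 CPM (151 to 158) and 72.2 CPM (68.6 to 75.8), and was 2.14-fold higher in SVZ (1.10, 1.02 to 1.17). The remaining 2 genes, Phf10 and Dpf3, were lower than Dpf2 in both libraries and under 2-fold apart. Phf10 (BAF45a; chromosome 17, 14945009 to 14961273), the PHD subunit of the PBAF form of the complex, had 763 and 283 reads, or 14.8 CPM (13.8 to 15.9) and 12.8 CPM (11.4 to 14.4). Its log2 ratio was 0.21 (0.010 to 0.41), and the interval included 0 under TMM scaling (0.12, -0.083 to 0.32). Dpf3 (BAF45c; chromosome 12, 83213745 to 83487716) had 117 and 62 reads, or 2.27 CPM (1.88 to 2.73) and 2.81 CPM (2.16 to 3.60). The study names Dpf3 as a cortical marker from its barcoding libraries, which were not analysed here. It also shows its marker genes as log10 ratios from LCM, and describes the LCM results for individual markers as a close match. In the LCM libraries, the log2 ratio of Dpf3 of -0.31 (-0.76 to 0.16) lay on the cortical side but left a difference not detectable at this depth. The bound on the cortical side was -0.76.

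Taking the PHD genes pairwise, Dpf1 rose most against Dpf2. The ratio of Dpf1 to Dpf2 reads was 0.0345 in SVZ and 0.777 in cortex, 22.5-fold higher in cortex (19.5 to 26.0). Against Phf10, Dpf1 was 12.2-fold higher in cortex (10.03 to 14.8). Dpf3 was 2.64-fold higher against Dpf2 (1.90 to 3.64) but 1.43-fold against Phf10, where the interval of the log2 value reached down to 0.0025 and, with the stranded sum, below 0 (-0.0100 to 0.98). Per kilobase, Dpf1 and Dpf2 were near equal in the cortex library at 22.1 and 21.5 RPKM, whereas in SVZ they stood at 2.10 and 45.9. Together Dpf1 and Dpf3 took 4.73% of the family per kilobase in SVZ and 43.9% in cortex, with Dpf3 at 0.625 and 0.772 RPKM. In this family the progenitor-type genes thus still held the larger share in the cortex library, unlike Actl6a and Ss18 in their pairs.

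Both ATPases were higher in the cortex library, by unequal amounts. Smarca4 (chromosome 9, 21616169 to 21704230) had 19509 reads in SVZ and 10704 in cortex, or 379 CPM (374 to 385) and 485 CPM (476 to 495). Smarca2 (chromosome 19, 26605050 to 26778322) had 8694 and 10110 reads, or 169 CPM (165 to 173) and 458 CPM (449.6 to 467.5). Smarca4 was 1.28-fold higher in cortex (log2 ratio -0.36, -0.39 to -0.32) and Smarca2 2.71-fold (-1.44, -1.48 to -1.40). Smarca2 reads per Smarca4 read went from 0.446 to 0.945, a 2.12-fold difference (2.04 to 2.20). This was the smallest point value among the pairs apart from Dpf3 with Phf10. The interval of Dpf3 with Dpf2 (2.64-fold, 1.90 to 3.64) held that of Smarca2 with Smarca4, so these pairs cannot be put in order. Smarca2 took 28.0% of the pair per kilobase in SVZ and 45.2% in cortex, and 32.4% and 50.4% when the longest transcript set the length. Which ATPase led in the cortex library therefore depended on the gene model.

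Ordered per kilobase of exon, the members changed place between the libraries. In SVZ, Actl6a led at 136 RPKM, followed by Smarca4 (59.5), Dpf2 (45.9), Smarca2 (23.1) and Actl6b (20.02). Ss18 (17.3), Ss18l1 (10.7), Phf10 (8.92), Dpf1 (2.10) and Dpf3 (0.625) were lower. In cortex, Actl6b led at 88.6, followed by Smarca4 (76.1), Smarca2 (62.8), Actl6a (42.7) and Ss18l1 (33.4). There Dpf1 (22.1), Dpf2 (21.5), Ss18 (8.11), Phf10 (7.72) and Dpf3 (0.772) followed. With 1 library per area, and because lengths rest on annotated exons, neighbours such as Dpf1 and Dpf2 or Ss18 and Phf10 in cortex cannot be put in order with confidence. The place of Phf10 is also uncertain in both libraries, as its unstranded count was below its stranded sum. These were 763 and 1086 reads in SVZ, and 283 and 410 in cortex.

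Set among the 12738 genes, the members reached farther towards the cortical end of the distribution than towards the SVZ end. Dpf1 had a lower log2 ratio than 97.1% of the genes, Actl6b than 93.7%, Ss18l1 than 90.7% and Smarca2 than 89.3%. On the other side, Actl6a had a higher ratio than 87.7%, Dpf2 than 81.8% and Ss18 than 81.6%. At least 4-fold higher in cortex were Dpf1 and Actl6b, a class that held 7.01% of all genes, while 0 members were 4-fold higher in SVZ, as 10.2% of all genes were. The progenitor-type genes were thus less far apart than the cycling genes, whose log2 ratios ran from 4.07 to 6.55. By log2 CPM over these 2 libraries, the genes nearest to Actl6a were Trim59, Pcna and U2af1 (distances 0.078, 0.086 and 0.10), and those nearest to Actl6b were C77370, Nckap5 and Nmnat2 (0.077, 0.095 and 0.14).

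**Figure D3:**
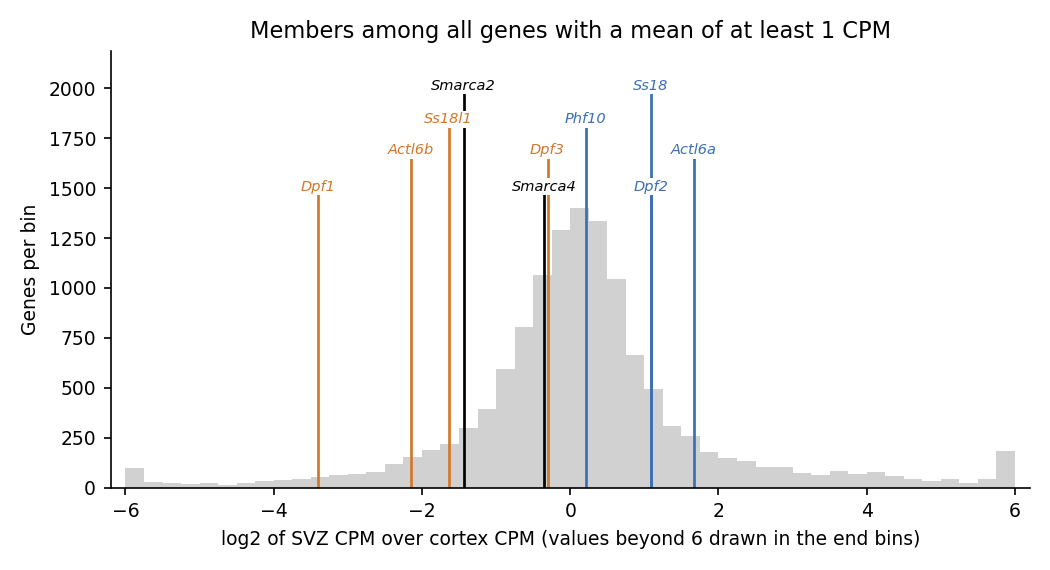
Histogram of the log2 ratio of SVZ CPM over cortex CPM for all 12738 genes averaging 1 CPM or more (grey), with vertical lines at the progenitor-type (blue), neuronal-type (orange) and ATPase (black) members. Dpf1 lies farthest from 0 at -3.40 and Phf10 nearest at 0.21.

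The other subunits were examined to see whether the rest of the complex moved with the alternative ones. Further genes for BAF, PBAF and non-canonical BAF subunits numbered 21. Of these, 9 were higher in SVZ and 12 in cortex, a direction that 45.1% of all genes took. The median log2 ratio of the 21 was -0.087. Under TMM, upper-quartile and DESeq2 scaling the split was 7 and 14, as Smarcb1 and Bcl7b, both near 0, changed side. At least 2-fold higher in SVZ was 1, Bcl7c, and at least 2-fold higher in cortex were 2, Smarcd3 and Bcl11b (3 genes under upper-quartile scaling), against 20.0% and 15.6% of all genes. The core genes Smarce1, Smarcb1, Smarcc1 and Smarcc2 were each less than 2-fold apart. Smarce1, a DNA-binding core subunit, had a log2 ratio of 0.57 (0.52 to 0.61). Smarcb1, the core subunit also known as SNF5, had 305 CPM in SVZ and 297 in cortex (log2 ratio 0.038, -0.0032 to 0.080). The scaffold subunit Smarcc1 had 206 and 211 CPM (-0.033, -0.083 to 0.017), and its paralogue Smarcc2 had 90.4 and 129.0 CPM (-0.51, -0.58 to -0.44). Beta-actin, itself a subunit, had a log2 ratio of -0.087.

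Several families among these subunits also differed within themselves. Of the BAF60 genes, Smarcd3 had 59.3 CPM in SVZ and 149.7 in cortex (log2 ratio -1.34, -1.41 to -1.26), Smarcd1 31.8 and 52.2 (-0.71), and Smarcd2 9.29 and 5.17 (0.85, 0.55 to 1.15). Of the genes for the large DNA-binding subunits, Arid1a had a log2 ratio of 0.19 and Arid1b of -0.76. The PBAF genes Pbrm1 (0.28), Arid2 (0.59) and Brd7 (0.78) were higher in SVZ. The non-canonical BAF genes Brd9 (-0.091), Bicra (-0.51) and Bicral (-0.89) were higher in cortex, as 45.1% of all genes were. None of these PBAF and non-canonical BAF genes reached 2-fold. Bcl11b, a BAF subunit and a transcription factor of deep-layer neurons, had 111 CPM in SVZ and 533 in cortex, a log2 ratio of -2.26 (-2.31 to -2.21), and its paralogue Bcl11a 346 and 647 (-0.90). Bcl7c was low, with 413 reads in SVZ and 48 in cortex, or 8.03 and 2.18 CPM (1.88, 1.45 to 2.35). These genes were listed under subunits and not under the exchange, and their values are descriptions of the same 2 libraries.

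**Figure D4:**
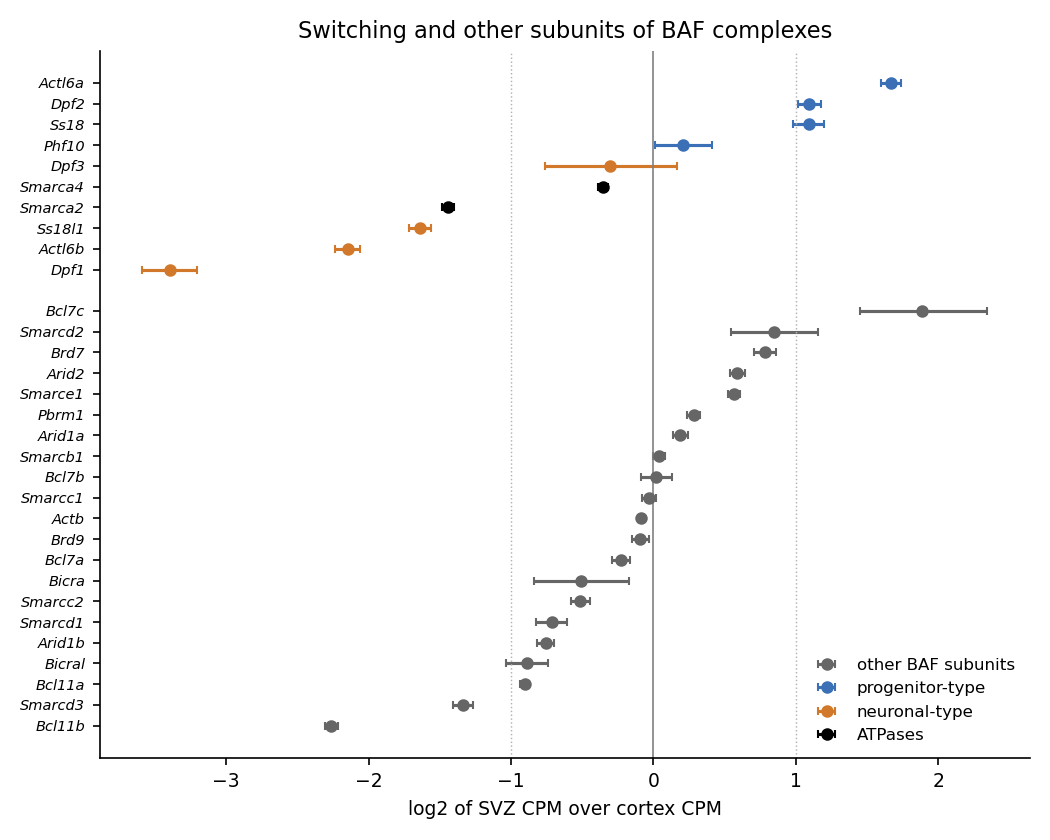
Log2 ratio of SVZ CPM over cortex CPM for the 10 members (upper block, coloured by type) and 21 other BAF subunit genes (lower block, grey), with exact 95% counting intervals and dotted lines at 2-fold. Of the other subunits, 18 lie inside the dotted lines, and Bcl7c, Smarcd3 and Bcl11b lie outside.

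Finally, the genes known to act on the exchange were read. Rest, the repressor of neuronal genes outside neurons, had 1458 reads in SVZ and 266 in cortex, or 28.3 and 12.1 CPM, and was 2.35-fold higher in SVZ (log2 ratio 1.23, 1.04 to 1.43). Its corepressors differed from each other, with Rcor2 at 40.6 and 24.5 CPM (0.73, 0.59 to 0.87) and Rcor1 at 9.51 and 14.8 CPM (-0.64, -0.85 to -0.43). Reads at the annotated microRNA genes come from longer transcripts and do not measure the mature forms. Mir9-2 had 147 reads in SVZ and 207 in cortex, a log2 ratio of -1.72 (-2.03 to -1.40), and Mir124a-2 had 10 and 31 (-2.85, -4.05 to -1.79). Mir9-1 had 12 and 0 reads, and the counting interval of its log2 ratio began at 0.25. Mir9-3, Mir124a-1 and Mir124a-3 had at most 3 reads in either library, and no ratio is given for them.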

How the data were processed

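Per the study's methods and the submitters' processing notes, the authors trimmed adapters with cutadapt 4.1 and mapped read 1 of paired reads to mm10 (iGenomes, GRCm38) with STAR 2.7.9a, which counted reads per gene. The libraries were made with a low-input cDNA kit from LCM pieces of sections stained with haematoxylin and eosin. The authors deposited these counts as whole numbers without normalization, in an unstranded and 2 stranded columns. STAR sets aside reads that map to several places or touch more than 1 gene, so paralogues share few reads but overlapping genes lose some. A merged deposited table holds the same counts, CPM and the authors' fold changes, and was not used. Duplicate removal is not given in the sources used here.

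Reads assigned to genes were 59.0% and 59.1% of all reads in the SVZ and cortex libraries. Unstranded counts were divided by the total of gene rows to give CPM. Log2 ratios are SVZ over cortex with no pseudocount and exact Clopper-Pearson 95% intervals. CPM intervals are exact Poisson. Ratios of ratios are conditional odds ratios with exact intervals. Genes averaging 1 CPM or more formed the background. Lengths are merged exons of protein-coding transcripts in GENCODE M21 basic, matched by symbol for 10 of 10 members. The authors counted reads with mm10 from iGenomes, and whether its gene models match these lengths was not tested. With 1 library per area no test was made. The members and lists were chosen with earlier results of these data known. Named genes are the members, the other subunits, the regulators and the 3 genes nearest to Actl6a and to Actl6b by log2 CPM. Bicra and Bicral are counted under older symbols. Alternatives were scaling by edgeR 4.0.16 (TMM or upper quartile), by size factors from DESeq2 1.42.0 or by reduced totals. The reduced totals leave out, from both libraries, the 10 most counted genes of each. Further ones were the stranded sum, thinning SVZ to cortical depth, adding 1 CPM before logs, a minimum of 10 CPM or none, the longest transcript as length, and a 4-fold threshold. Scripts were tested on simulated data. The software was R 4.3.3 and Python 3.11.15 with pandas 2.3.3, scipy 1.17.1, matplotlib 3.10.9 and numpy 2.4.6.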

Additional observations from a re-analysis of the deposited data

Results flagged for a closer look

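The stranded columns, used only as an alternative to the unstranded count, held more than 3 further reads in at least 1 library for 4 of the subunit genes. The sum of these columns exceeded the unstranded count of Phf10 by 323 reads in SVZ and 127 in cortex, of Smarca2 by 458 and 299, and of Bcl7c by 77 and 10, each above the 3 reads that a count of 0 allows. For Arid2 the excess was 4 reads in SVZ. In GENCODE M21, exons of Phf10 share 470 bases with 1600012H06Rik and exons of Smarca2 share 40 with 4931403E22Rik, both on the opposite strand. Reads in such overlaps cannot be assigned without strand. Exons of Actl6a share 452 bases with Mrpl47, also on the opposite strand. The stranded sum of Actl6a equalled its unstranded count, at 14009 reads in SVZ and 1892 in cortex. With the stranded sum, Phf10 reached 1086 and 410 reads, for a log2 ratio of 0.18 (0.015 to 0.35).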

How the results depend on the processing

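No paired analysis was possible because SVZ and cortex have 1 library apiece, and no replicate could be left out. No member changed side of equal CPM under any alternative, and ratios of ratios do not depend on scaling. The number of progenitor-type genes at least 2-fold higher in SVZ, 3, became 2 under TMM scaling and DESeq2 size factors (Ss18 at 1.00), 1 under upper-quartile scaling and 0 at a 4-fold threshold. Upper-quartile scaling moved the progenitor-type median to 0.99, and TMM, upper-quartile and DESeq2 scaling moved the neuronal-type median to -1.99, -1.99 and -1.99. The 4-fold threshold left 0 other subunits in SVZ and 1 in cortex, and 1300 and 893 of all genes in place of 2547 and 1992. A minimum of 10 CPM left 0 other subunits in SVZ, since Bcl7c was not tested, and 1341 and 1113 of all genes. A pseudocount of 1 CPM moved the log2 ratio of ratios of Dpf1 to Dpf2 from 4.49 to 4.26. With the longest transcript as length, the share of Ss18l1 was 36.3% in SVZ and 79.1% in cortex, of Smarca2 32.4% and 50.4%, and of Dpf1 against Dpf2 52.7% in cortex. Members whose interval excluded equal CPM numbered 9, and 8 under the 4 other scalings, where Phf10 no longer did. Depth limits Dpf3 most, with 117 and 62 reads.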
